A study of Mus musculus with 6 samples.

Results

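The genes described here are the 8 members of the epidermal growth factor (EGF) family named Areg, Ereg, Hbegf, Btc, Tgfa, Egfr, Erbb2 and Erbb3. They were taken by gene symbol from the 54532 genes of the deposited count table. The set holds 5 ligands of the EGF receptor and 3 receptors of the family. All 8 genes had a count in at least 1 library, and 6 of them passed the expression filter and were tested among 14522 genes.

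RNA was sequenced from infarct macrophages of 6 C57BL/6 mice aged 12 weeks, 7 days after permanent occlusion of a coronary artery. There were 3 libraries from ITGA5 fl/fl mice (controls), in which both copies of the integrin α5 gene are flanked by loxP sites and which carry no Cre, and 3 from Myα5KO littermates, which carry the same floxed gene and a LyzM-Cre transgene that deletes it in myeloid cells. Each library came from the cells of 1 heart that were left after Ly6G+ cells were removed and that were then bound by CD11b beads, so the fraction was defined by those surface proteins and could hold other CD11b+ cells. The comparison asks which transcripts of infarct macrophages differ when integrin α5 is deleted in myeloid cells. Since the controls carried no Cre, effects of LyzM-Cre cannot be told apart from those of the deletion. Direct and secondary effects of the deletion cannot be told apart either. The members are read here as ligands that macrophages could send and receptors they could use.

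The EGF receptor is a tyrosine kinase that pairs with itself or with its relatives ErbB2, ErbB3 and ErbB4 when a ligand binds. Its ligands are made as membrane proteins and are released when a metalloprotease, most often ADAM17, cuts them from the cell surface. Amphiregulin and heparin-binding EGF-like growth factor are made by leukocytes as well as by epithelium, and act on fibroblasts, endothelial cells and cardiomyocytes in injured tissue.

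The libraries held 15424451 to 18419287 counts. The label check held: Itga5, the deleted gene, had 607 ± 43.2 counts scaled to the library total (CPM) in controls against 48.7 ± 1.48 in Myα5KO (SD, n = 3 each), which is 8.02% of the control level. All 7 macrophage markers were present in both groups, and their summed level was 12004 to 12609 CPM in controls against 8661 to 9015 CPM in Myα5KO. Lyz2, the gene that hosts the Cre, was called lower (log2 fold change -0.92) and Fcgr1 was called higher (0.27), and without Lyz2 the sums overlapped, at 4931 to 5172 against 4654 to 5074 CPM. Across all tested genes, edgeR called 1271 at an adjusted p of 0.05 or less, which is 8.75%. Of these, 754 (5.19%) were lower in Myα5KO and 517 (3.56%) were higher. Scaling by library size alone turned that split to 518 lower and 1212 higher, and the median log2 fold change of all tested genes moved from 0.01 to 0.10. The calls and directions of the members were the same under both scalings.

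Areg, Ereg and Btc lie near each other on chromosome 5, in a stretch that also holds the ligand gene Epgn and a group of chemokine genes. Areg lies at chr5:91139599-91148432 on the plus strand of GRCm38 and Ereg at chr5:91074622-91093646 on the same strand, with 45952 bases between them. Btc lies at chr5:91357261-91402994 on the minus strand, 208828 bases beyond Areg. The proximal promoter of Areg is printed because Areg had the highest level of the 8 genes and was lower in Myα5KO. The sequence is the 250 bases before the RefSeq start of the gene in GRCm38.p6, chr5:91139349-91139598 on the plus strand, and it ends 1 base before the start that the deposited table gives.
Areg promoter: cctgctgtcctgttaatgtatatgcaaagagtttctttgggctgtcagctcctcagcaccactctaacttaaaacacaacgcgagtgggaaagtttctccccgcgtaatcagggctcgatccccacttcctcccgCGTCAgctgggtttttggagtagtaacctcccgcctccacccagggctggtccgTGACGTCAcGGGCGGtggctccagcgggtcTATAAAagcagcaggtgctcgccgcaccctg

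The capitals mark, from left to right, the short form of the cAMP response element (TGACG, here on the opposite strand), a full cAMP response element (TGACGTCA), a GC box (GGGCGG) and a TATA box (TATAAA). Letters were searched on both strands, and a full element holds the short form on each strand. The full element began 61 bases before the gene start and was present in 1.55% of the 32851 promoter windows of the same length. The short form was present in 17.8% of these windows, the GC box in 32.7% and the TATA box in 12.4%. The AP-1 letters TGANTCA, found in 6.75% of windows, and the E-box letters CACGTG, found in 6.02%, were not in the Areg window. Promoter windows were found for 5 of the 8 members (Areg, Btc, Tgfa, Egfr and Erbb2), and the full cAMP response element was in the Areg window alone among those 5.

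By level per gene length, the set fell into 2 ligands that were well expressed and 6 genes that were low. Fragments per kilobase of gene, scaled to library depth (FPKM), ranked Areg at 2012 and Hbegf at 3829 of the 27687 genes with any count, followed by Ereg at 12717, Egfr at 13745, Erbb3 at 14438, Erbb2 at 16391, Tgfa at 19829 and Btc at 25493. The lowest Areg library lay above the highest Hbegf library in each group, and the lowest Hbegf library lay above the highest Ereg library. Further down, the libraries of Ereg and Egfr overlapped in both groups, those of Egfr and Erbb3 overlapped in Myα5KO, those of Erbb2 and Tgfa overlapped in ITGA5 fl/fl, and those of Tgfa and Btc overlapped in Myα5KO. Areg made up 61.4% to 69.2% of the summed FPKM of the 5 ligands in each library, and Hbegf 28.5% to 37.4%.

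Both well expressed ligands, Areg and Hbegf, were lower in Myα5KO, and no member was called higher. Areg was at 62.4% of its control level and Hbegf at 68.0% in the edgeR fit. The calls thus covered 2 of the 6 tested members, where 5.19% of all tested genes were called lower. The members, and the gene lists used below, were chosen with earlier results of these data known. Such shares are therefore descriptions and carry no test. Ereg pointed the same way but did not pass the test, and none of the 3 receptors passed it. DESeq2 and limma-voom each called the same 2 genes lower and 0 members higher, and at an unadjusted edgeR p under 0.05 there were 3 members lower and 1 higher. In 2 of the 6 tested members all Myα5KO libraries were below all controls, as in 13.8% of all tested genes, and in 1 they were above, as in 14.9%. In bulk RNA, fewer cells of a type and less RNA per cell cannot be told apart.

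**Figure D1:**
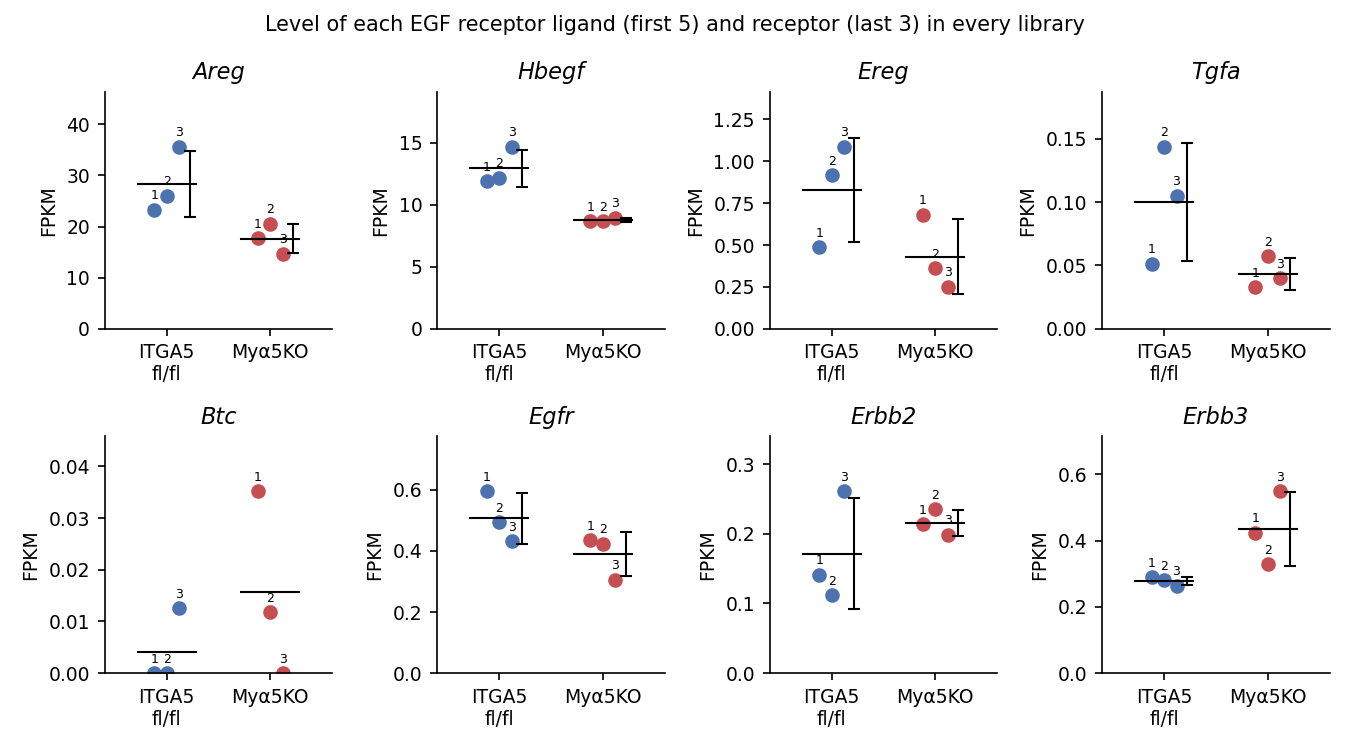
Level of each member in FPKM (vertical axes, linear, each gene with its own scale) in the 3 ITGA5 fl/fl libraries (blue) and the 3 Myα5KO libraries (red), numbered by replicate, with the group mean as a line and the SD as a bar (none for Btc, which had 0 counts in 3 libraries). The Areg and Hbegf points of the groups do not overlap, and the highest Areg point is ITGA5 fl/fl library 3 at 35.6 FPKM.

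Areg encodes amphiregulin, a low-affinity ligand of the EGF receptor. It measured 23.3, 26.0 and 35.6 FPKM in control libraries 1 to 3 against 17.7, 20.5 and 14.7 FPKM in the Myα5KO libraries 1 to 3. All 3 Myα5KO libraries were below all 3 controls, and ITGA5 fl/fl library 3 was the highest by a wide margin. These values rest on 423, 542 and 762 counts in controls and on 405, 468 and 346 in Myα5KO. In CPM, the mean was 34.5 ± 7.86 in controls against 21.6 ± 3.42 in Myα5KO (SD, n = 3 each). The log2 fold change was -0.68 (SE 0.15, 95% confidence interval -0.99 to -0.37, edgeR adjusted p = 0.0116). Without ITGA5 fl/fl library 3 the fold change was -0.48 and Areg was no longer called (adjusted p = 0.0553, range 0.000385 to 1 over 16 alternatives, and 5.41e-10 in a further fit without a count filter). Tests on the log2 FPKM scale did not call it either, with an adjusted p of 0.0858 at a pseudocount of 1.

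Hbegf encodes heparin-binding EGF-like growth factor, which binds the EGF receptor and ErbB4 and also binds heparan sulfate. The gene lies on the minus strand of chromosome 18. Its level was 11.9, 12.2 and 14.7 FPKM in the control libraries against 8.66, 8.69 and 8.97 FPKM in the Myα5KO libraries. The 3 Myα5KO values were nearly equal to each other and all lay below the lowest control. The counts were 423, 497 and 614 in controls against 387, 387 and 412 in Myα5KO. The mean was 30.8 ± 3.59 CPM in controls against 21.0 ± 0.586 CPM in Myα5KO (SD, n = 3 each). Its log2 fold change was -0.56 (SE 0.09, 95% confidence interval -0.76 to -0.35, edgeR adjusted p = 0.0033). Hbegf stayed past the threshold whichever of the 6 libraries was left out, with fold changes from -0.61 to -0.46.

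Ereg encodes epiregulin, a ligand of the EGF receptor and ErbB4 whose gene is the nearest expressed neighbour of Areg. It measured 0.486, 0.917 and 1.09 FPKM in the control libraries against 0.682, 0.362 and 0.250 FPKM in the Myα5KO libraries. ITGA5 fl/fl library 1 was the lowest control and Myα5KO library 1 was above it, so the groups overlapped. An antisense gene, Gm19610, overlaps the start of Ereg and held 4 counts over all 6 libraries. The counts behind these values were 30, 65 and 79 in controls against 53, 28 and 20 in Myα5KO. The log2 fold change was -0.95 (SE 0.35, 95% confidence interval -1.70 to -0.21) and missed the threshold (edgeR adjusted p = 0.112). The point estimate of Ereg was the largest of the 3 tested ligands, and its interval held the estimates of both Areg and Hbegf. Leaving out Myα5KO library 1 gave -1.45 (adjusted p = 0.0193) and leaving out ITGA5 fl/fl library 1 gave -1.21 (adjusted p = 0.0450), both of which passed. The adjusted p ranged from 0.0193 to 1 over 14 alternatives, and was 0.00236 in a further fit without a count filter.

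**Figure D2:**
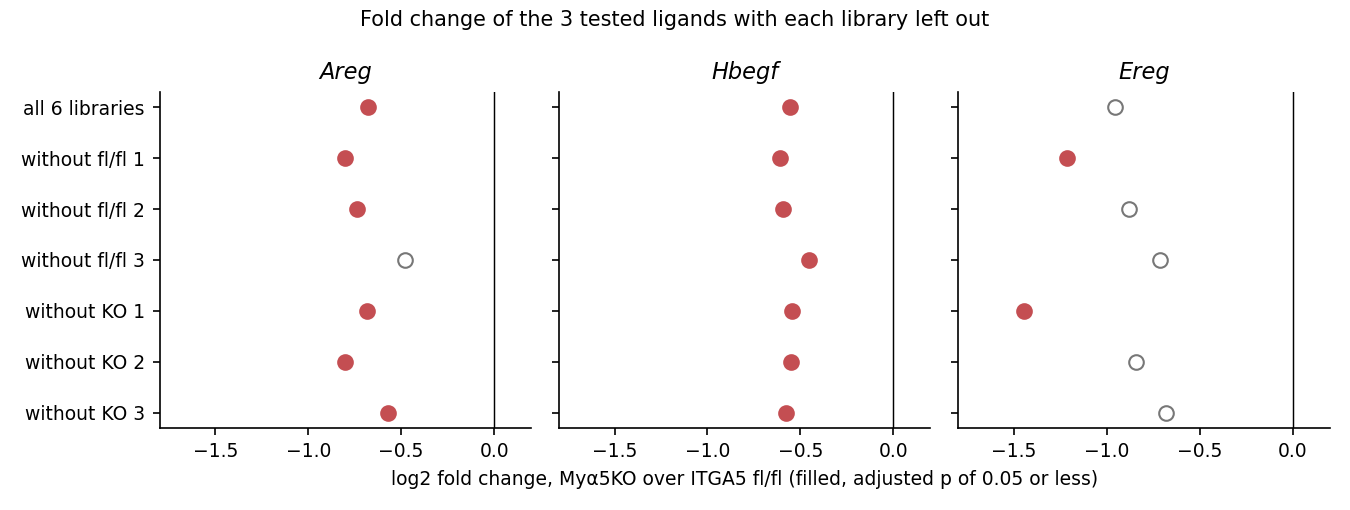
Log2 fold change of Areg, Hbegf and Ereg (horizontal axes) with all 6 libraries and with each library left out in turn (vertical axis, KO for Myα5KO), filled where edgeR's adjusted p was 0.05 or less. Hbegf is filled in every row, Areg is open without ITGA5 fl/fl library 3 (-0.48), and Ereg is filled only without ITGA5 fl/fl library 1 (-1.21) or Myα5KO library 1 (-1.45).

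Tgfa and Btc did not pass the expression filter of edgeR. Tgfa encodes transforming growth factor α, which binds the EGF receptor, and had 5, 16 and 12 counts in the control libraries against 4, 7 and 5 in the Myα5KO libraries. Btc encodes betacellulin, a ligand of the EGF receptor and ErbB4, and had 0, 0 and 1 counts in controls against 3, 1 and 0 in Myα5KO. A library with 0 counts is compatible with up to 3 at this depth, which covers counting error only. DESeq2, run on all genes without that filter, gave Tgfa a log2 fold change of -1.22 (SE 0.74, unadjusted p = 0.10) and Btc one of 1.71 (SE 2.44, unadjusted p = 0.483), with no adjusted p for either. A difference between groups was not detected for either gene, and one could be missed at this depth.

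Summed over the 5 ligands, the level was 35.7, 39.2 and 51.5 FPKM in the control libraries against 27.1, 29.7 and 24.0 FPKM in the Myα5KO libraries. The groups did not overlap, and Areg and Hbegf carried nearly all of the sum. The sum over the 3 receptors was 1.03, 0.886 and 0.957 FPKM in controls against 1.07, 0.987 and 1.05 FPKM in Myα5KO. Ligand FPKM therefore exceeded receptor FPKM in every library, by 34.8-, 44.3- and 53.8-fold in ITGA5 fl/fl and by 25.2-, 30.1- and 22.8-fold in Myα5KO. The size of these ratios depends on the gene lengths by which FPKM divides, such as 1215 bases for Areg and 11326 for Egfr. The ratio of Areg to Hbegf in FPKM lay between 1.64 and 2.42 in the 6 libraries. In counts, both had 423 in ITGA5 fl/fl library 1, and Areg had 346 against 412 for Hbegf in Myα5KO library 3. Areg had more counts than Hbegf in each remaining library.

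The receptors were low in both groups. Egfr, the receptor that all 5 ligands bind, lies at chr11:16752203-16918158 on the plus strand and measured 0.596, 0.494 and 0.431 FPKM in ITGA5 fl/fl against 0.436, 0.424 and 0.306 FPKM in Myα5KO. The groups overlapped by 1 library, since ITGA5 fl/fl library 3 lay below Myα5KO library 1. Egfr had a log2 fold change of -0.38 (SE 0.18, 95% confidence interval -0.77 to 0.02, edgeR adjusted p = 0.238), so a level from 58.7% to 101% of the control remained within the interval. Egfr had 283 counts over the 3 ITGA5 fl/fl libraries and 250 over the 3 Myα5KO libraries.

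Erbb3 encodes a receptor with little kinase activity of its own that binds neuregulins and signals through its partner. It lies at chr10:128567523-128589652 on the minus strand and measured 0.289, 0.281 and 0.264 FPKM in controls against 0.424, 0.328 and 0.550 FPKM in Myα5KO. All Myα5KO libraries were above all controls, which were close together, while Myα5KO library 3 was the highest. Erbb3 had a log2 fold change of 0.65 (SE 0.25, 95% confidence interval 0.10 to 1.20), and the gene was not called (edgeR adjusted p = 0.140). Erbb3 was not called in any of the 15 alternatives that tested it.

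Erbb2 encodes the family member that binds no known ligand and serves as the preferred partner of the others. It lies at chr11:98412470-98437716 on the plus strand and had 11, 10 and 24 counts in controls against 21, 23 and 20 in Myα5KO. ITGA5 fl/fl library 3 was above all the others, and the remaining 2 controls were below all Myα5KO libraries. The log2 fold change was 0.32 (SE 0.36, 95% confidence interval -0.45 to 1.09, edgeR adjusted p = 0.642), so levels from 73.3% to 214% of the control remained within it. The last 9 bases of Erbb2 overlap Mien1, a gene on the opposite strand with a mean of 105 counts, and whether counting used the strand is not given in the sources used here.

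The rest of the pathway was read from 5 lists of 60 genes, of which 56 were tested. In them 12 genes were lower and 1 was higher in Myα5KO, beside 5.19% of all tested genes lower and 3.56% higher, with a median log2 fold change of -0.03 against 0.01 over all tested genes. The lists cover the other ligands and receptor, the proteins that shed ligands, feedback and receptor turnover, signal transduction, and genes that respond at once to the receptor. The lower genes included the ligand Nrg1, the shedding genes Rhbdf2 and Adam8, the receptor inhibitor Errfi1, the adaptor Gab1 and the response gene Fosl1.

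Among the other ligands and receptor, Nrg1 alone was called of 3 tested genes, where 5.19% of all tested genes were called lower. Nrg1 encodes neuregulin 1, which binds ErbB3 and ErbB4, and had 343, 426 and 473 counts in controls against 222, 245 and 187 in Myα5KO. The groups did not overlap, and the mean fell from 25.0 ± 1.96 to 11.6 ± 1.65 CPM (SD, n = 3 each). The log2 fold change was -1.11 (SE 0.11, edgeR adjusted p = 0.000132), a larger estimate than that of Areg or Hbegf, and it was the single listed gene past a test against a minimum change of 1.5-fold. Nrg2 and Nrg4 were tested and not called. Egf had 49 counts over the 6 libraries, while Erbb4 and Epgn had 2 each and Nrg3 had 0, so Erbb4, the other receptor of neuregulin 1, was at or near 0 in these cells.

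The shedding list had 2 of 9 tested genes lower, against the same 5.19% of all tested genes. Rhbdf2 encodes iRhom2, which carries ADAM17 to the cell surface, and changed by -0.45 (log2, SE 0.06, edgeR adjusted p = 0.000921). Adam8, a metalloprotease of myeloid cells, changed by -0.40 (SE 0.09, adjusted p = 0.0147), and its call was lost without ITGA5 fl/fl library 3. Adam17, the main sheddase of Areg, Hbegf and Tgfa, had 292 ± 13.9 CPM in controls against 300 ± 12.2 CPM in Myα5KO, and its log2 fold change of 0.04 was not called. Adam10, which sheds betacellulin and EGF, was not called either, at 0.09.

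Of 11 tested genes of feedback and receptor turnover, 1, Errfi1, was lower, where 5.19% of all tested genes were. The median log2 fold change of that list was 0.004. Errfi1 encodes MIG6, which binds and inhibits the EGF receptor kinase and is itself induced by growth factors, and its log2 fold change was -0.60 (SE 0.08, edgeR adjusted p = 0.00061). The signal transduction list had 3 of 19 genes lower, again beside 5.19% of all tested genes. Gab1, a docking protein for receptor kinases, changed by -0.97 (SE 0.09), the kinase Src by -0.55 (SE 0.08) and the kinase Braf by -0.53 (SE 0.11).

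The response list held calls in both directions, with 5 of 14 tested genes lower and 1 higher (5.19% and 3.56% of all tested genes). Fosl1, a component of the AP-1 transcription factor, changed by -1.12 (SE 0.16). The receptor kinase gene Epha2 changed by -0.50 (SE 0.11), Ier3 by -0.41 (SE 0.08), the phosphatase gene Dusp4 by -0.39 (SE 0.09) and Phlda1 by -0.37 (SE 0.10). Fos, another AP-1 component and a standard early gene of growth factor signalling, rose by 0.55 (SE 0.11, edgeR adjusted p = 0.00987), and its call was lost without ITGA5 fl/fl library 3. Egr1, the other early gene most often used as a readout, was at 0.46 (SE 0.15) and was not called (adjusted p = 0.0764). Scaling by library size called Egr1, Dusp6 and Etv5 higher as well, which made 4 higher and 11 lower over the 5 lists. Phlda1 lost its call without ITGA5 fl/fl library 2, ITGA5 fl/fl library 3, Myα5KO library 1 or Myα5KO library 3, and Dusp4 lost it without ITGA5 fl/fl library 1, ITGA5 fl/fl library 2 or Myα5KO library 2.

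**Figure D3:**
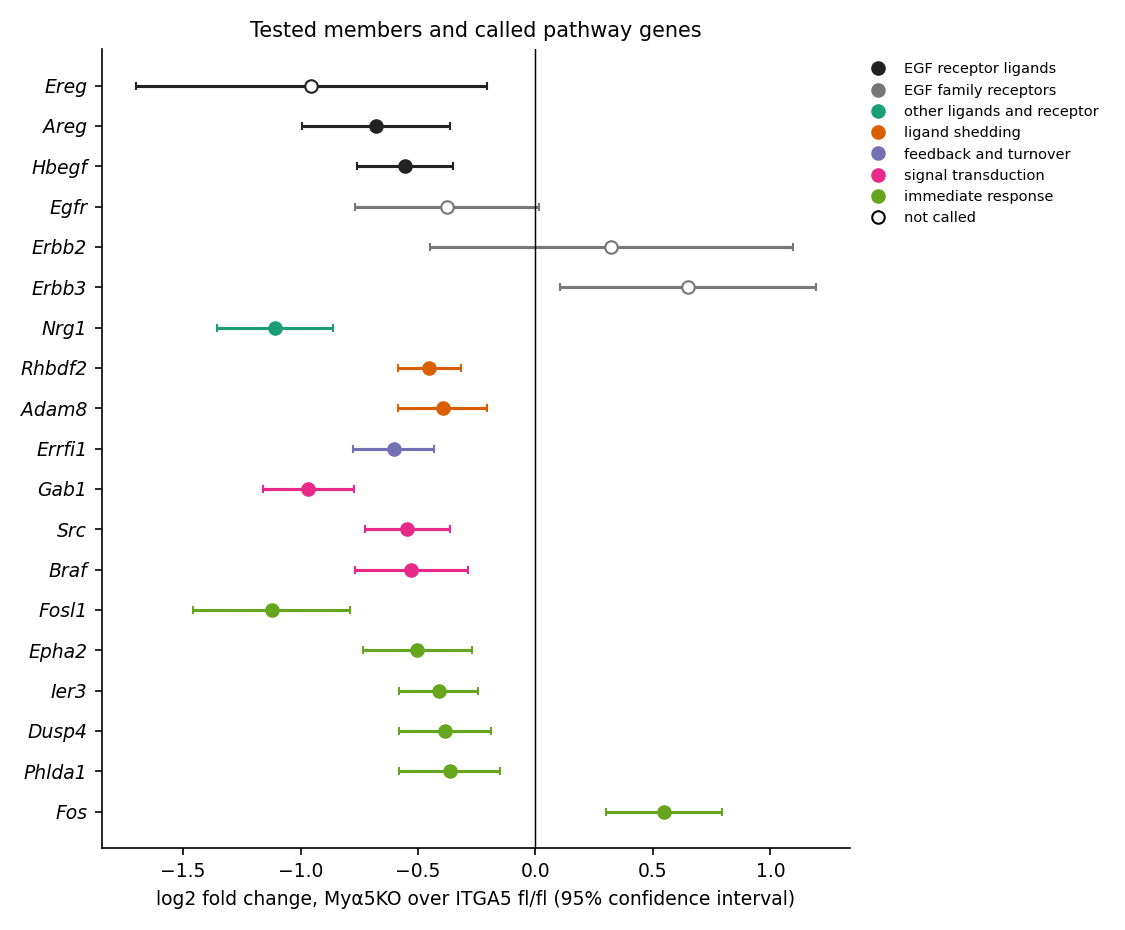
Log2 fold change, Myα5KO over ITGA5 fl/fl, with its 95% confidence interval (horizontal axis) for the 6 tested members and the 13 called genes of the 5 pathway lists (rows), coloured by list and open where not called. Nrg1 (-1.11) and Fosl1 (-1.12) lie farthest to the left of the called genes, and Fos (0.55) is the called gene to the right of 0.

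Around Areg, 22 rows of the table started within 500000 bases of its start, and 10 of them were tested. Of these 10 genes, 5 were lower in Myα5KO, Areg itself among them, where 5.19% of all tested genes were. A negative estimate was found for 9 of the 10 and for 47.2% of all tested genes. None was called higher by edgeR, DESeq2 or limma-voom, and 0 were higher at an unadjusted p under 0.05. Beside Areg, the lower genes were Cxcl5, Cxcl3, Cxcl1 and Cxcl2, which encode chemokines that attract neutrophils. Cxcl3 had 155 ± 47.8 CPM in controls against 49.8 ± 5.16 CPM in Myα5KO (SD, n = 3 each), and its log2 fold change was -1.64 (SE 0.17, edgeR adjusted p = 0.00016). Cxcl1 changed by -0.97 (SE 0.10), Cxcl2 by -0.81 (SE 0.08) and Cxcl5 by -1.34 (SE 0.28). The chemokine genes are relatives of similar sequence, and how reads that map to several places were counted is not given in the sources used here.

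The locus also held genes that were not called. The platelet chemokine genes Ppbp and Pf4 were at -0.37 (SE 0.28) and -0.20 (SE 0.12), and both were called lower without ITGA5 fl/fl library 1, when 8 genes of the locus were lower. Without ITGA5 fl/fl library 3, which had the highest Areg and Cxcl3 counts, the locus had 3 lower genes, and Areg and Cxcl5 were not among them. Mthfd2l, which lies between the chemokines and Epgn, was at 0.06 (SE 0.18), and Parm1, on the far side of Btc, was at -0.13 (SE 0.29). The sign of both changed with the libraries used.

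**Figure D4:**
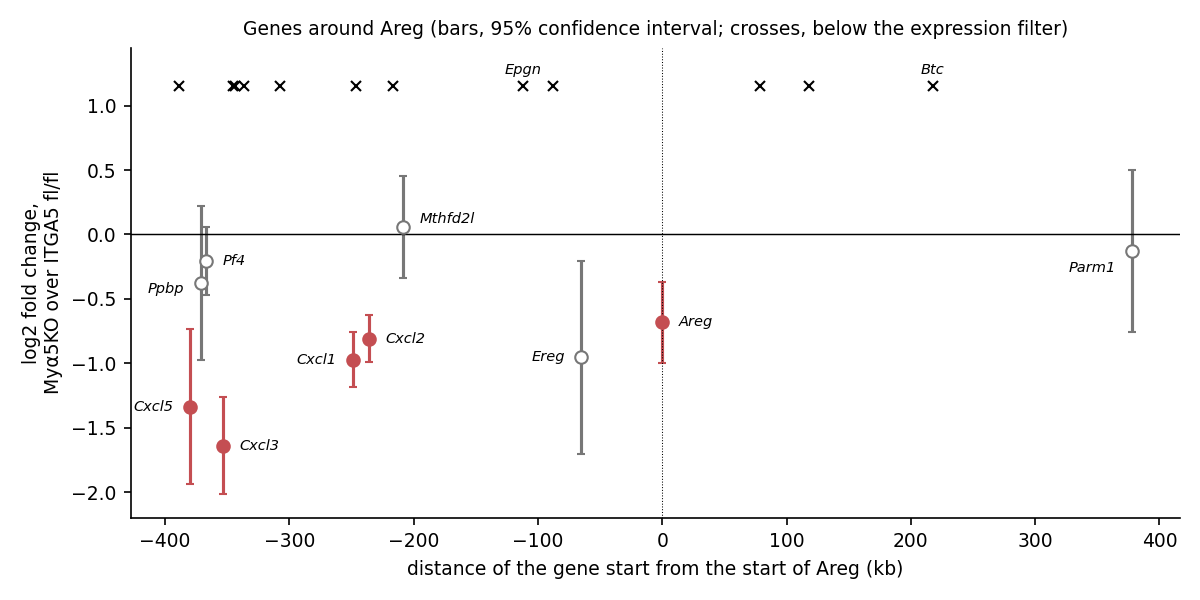
Log2 fold change, Myα5KO over ITGA5 fl/fl, with its 95% confidence interval (vertical axis) against the distance of each gene's start from that of Areg in kilobases (horizontal axis), filled where called lower. Cxcl5, Cxcl3, Cxcl1, Cxcl2 and Areg are filled and below 0, while Mthfd2l (0.06) and Parm1 (-0.13) lie near 0 and the crosses along the top are genes below the expression filter, Epgn and Btc among them.

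The genes whose log2 CPM followed Areg and Hbegf most closely over the 6 libraries were listed as a description. They were chosen as the highest of 9877 genes, and the libraries share their groups and depth, so the size of r carries no test. For Areg they were Surf4 (Pearson r = 0.998, and 0.994 for deviations from the group means), Cdk5r1 (0.995 and 0.983), Slc48a1 (0.989 and 0.966), Tmem198b (0.987 and 0.962) and Plekhb2 (0.987 and 0.977). Surf4, Tmem198b and Plekhb2 were not themselves called between the groups. For Hbegf they were Mir155hg (0.995 and 0.983), Tapt1 (0.991 and 0.920), Cfap43 (0.989 and 0.930), Gtf2f1 (0.988 and 0.905) and Daam2 (0.986 and 0.892). Mir155hg is the host transcript of the microRNA miR-155, and its log2 fold change was -0.80 (edgeR adjusted p = 0.00495).

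For some other cell types the summed markers did not overlap between the groups. Such separation was common: among single tested genes, all Myα5KO libraries were below all controls in 13.8% and above in 14.9%. The neutrophil sums were higher in Myα5KO, while the fibroblast and cardiomyocyte sums were lower, as Areg and Hbegf were. The 8 neutrophil markers summed to 31.6 to 54.4 CPM in controls against 73.8 to 195 CPM in Myα5KO. Of 7 tested markers 6 were called higher, where 3.56% of all tested genes were, although Ly6g itself, the gene of the depleted protein, averaged 0.667 counts. The 9 fibroblast markers summed to 1633 to 1913 CPM in controls against 1223 to 1592 CPM in Myα5KO. Of 9 tested fibroblast markers 1, Postn, was called lower, where 5.19% of all tested genes were. All 9 had a negative estimate, as had 47.2% of all tested genes. The sums of the 7 cardiomyocyte markers did not overlap either, at 19.2 to 21.9 against 12.9 to 16.7 CPM. Of 7 tested cardiomyocyte markers 2, Tnnt2 and Actc1, were called lower, beside the same 5.19%. The part of these cells in the lower level of Areg and Hbegf was not tested. Summed markers of endothelial cells, of B cells, of dendritic cells, of mesothelium, of mast cells and basophils, and of T, NK and innate lymphoid cells overlapped between groups. The B cell sums of 54.9 to 87.1 against 86.3 to 146 CPM overlapped narrowly. Of 4 tested B cell markers 1 was called higher, where 3.56% of all tested genes were, and 0 had a negative estimate. Of 6 tested dendritic cell markers 1, Cd209a, was called higher. Of 6 tested endothelial markers 1, Kdr, was called higher and 1, Cldn5, lower, beside 3.56% and 5.19% of all tested genes. Of all the markers, Fcer1a alone was at 0 in every library.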

How the data were processed

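Poly(A) RNA-seq of 6 libraries was examined. The labels and methods name TopHat2 2.0.9 for alignment to the mouse genome mm10 (GRCm38.p6), HTSeq 0.6.1 for counting reads per gene and Cufflinks 2.1.1. The authors deposited raw counts and FPKM per gene; each FPKM equalled the count divided by gene length and by 1 constant per library. FPKM served for levels between genes, and counts for tests. Counts were tested in edgeR 4.0.16 (R 4.3.3) with TMM scaling, filterByExpr (minimum count 10, minimum total 15) and the two-sided quasi-likelihood test, with Benjamini-Hochberg adjustment over all 14522 tested genes and a threshold of 0.05; CPM use the same scaling. The script was tested on simulated data. DESeq2 1.42.0, limma 3.58.1 on voom weights or on log2(FPKM + 1) or log2(FPKM + 0.1), other scalings and filters, a 1.5-fold minimum, a replicate block and leaving out each library were tried as alternatives.

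The members and gene lists were chosen with earlier results of these data known. The named genes were the 8 members, Itga5, list genes past the threshold, the tested genes of the Areg locus, and for members with a mean of at least 100 counts the 5 genes (mean of at least 5 CPM) with the highest correlation; other listed genes were named after their values were seen. Replicates were separate hearts. Promoter sequences are RefSeq's. Motif letters were matched on both strands.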

Additional observations from a re-analysis of the deposited data

How the results depend on the processing

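The directions of the 6 tested members were the same in every alternative that tested them, and in every alternative 0 members were called higher. Hbegf was called in 15 of 17 alternatives and Areg in 12 of 17. On log2(FPKM + 1) and log2(FPKM + 0.1), Areg was at -0.64 (adjusted p = 0.0858) and -0.67 (adjusted p = 0.0873), which left 1 member lower each, 7 and 7 list genes lower, 0 list genes higher, 3 and 3 locus genes lower, 322 and 306 genes lower overall and 150 and 142 higher. Without a filter on FPKM, Areg was at -0.64 (adjusted p = 0.231) and Hbegf at -0.51 (adjusted p = 0.0862), with 0 members, 0 list genes and 0 locus genes called and 8 genes lower and 2 higher overall. Against a minimum change of 1.5-fold, neither Areg (-0.68) nor Hbegf (-0.56) was called (adjusted p of 1 each), 0 members, 1 list gene (Nrg1) and 1 locus gene (Cxcl3) were lower, 0 list genes were higher, and 14 genes were lower and 1 higher overall. Without a count filter in edgeR, Ereg was called at -0.95 (adjusted p = 0.00236). There, 4 list genes were higher, and 798 genes were higher among all those tested. In that fit genes kept no spread of their own. DESeq2 called 2 list genes higher, and library-size scaling 4, with 1212 genes higher overall. The causes of these shifts were not tested.

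Leaving out each library in turn gave 1 to 3 members lower, 3 to 8 locus genes lower, 10 to 12 list genes lower, 0 to 3 list genes higher, 429 to 671 genes lower and 187 to 420 genes higher overall. The fold change ranged from -0.80 to -0.48 for Areg and from -1.45 to -0.68 for Ereg, and the sign changed for Mthfd2l (-0.10 to 0.14) and Parm1 (-0.37 to 0.033). Fewer samples enter each of these fits. The replicate numbers did not pair the samples: the deviations of same-numbered libraries correlated at 0.05, -0.06 and 0.04, and 2 of 6 libraries correlated best with their own number. With the replicate block, Areg and Hbegf stayed called, 2 members were lower, and 717 genes were lower and 464 higher overall. Tgfa and Btc, with at most 16 counts in a library, did not pass the edgeR filter, and the mean count was 45.8 for Ereg, 38.7 for Erbb3 and 18.2 for Erbb2.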

Other observations

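A pair of gene groups linked to the ligands was read after the results were known. Prostaglandin E2 raises cAMP through the receptors EP2 and EP4. Of 17 genes of its synthesis, reception and cAMP signalling, 16 were tested. By edgeR, 4 were lower in Myα5KO and 0 were higher, where 5.19% of all tested genes were lower and 3.56% higher. DESeq2 and limma-voom also called 0 higher, and 1, Pde4a, was higher at an unadjusted edgeR p under 0.05. The median log2 fold change of these genes was -0.19 against 0.01 over all tested genes. Ptges, the inducible prostaglandin E synthase, had 7.52 ± 1.73 CPM in controls and 3.09 ± 0.611 in Myα5KO (SD, n = 3), and changed by -1.28 on the log2 scale (SE 0.20, adjusted p = 0.00221). Crem, a cAMP-responsive transcription factor, changed by -0.38 (SE 0.06), Pde4b, a cAMP phosphodiesterase, by -0.53 (SE 0.08) and Ptger2, the gene of EP2, by -0.59 (SE 0.16). Ptgs2, which encodes cyclooxygenase 2, was at -0.32 (SE 0.10) and was not called (adjusted p = 0.0583), and Ptger4, the gene of EP4, was at 0.13 (SE 0.07) and was not called.

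The other group held 9 genes of tetraspanins, Cd44 and heparan sulfate proteoglycans, read as membrane partners of ligand precursors such as that of Hbegf. All 9 were tested. By edgeR, 2 were lower in Myα5KO and 0 were higher, where 5.19% of all tested genes were lower and 3.56% higher. DESeq2 and limma-voom also called 0 higher, and 0 were higher at an unadjusted edgeR p under 0.05. Sdc4, the gene of syndecan 4, went from 695 ± 64.7 to 507 ± 27.8 CPM, a log2 fold change of -0.46 (SE 0.08, adjusted p = 0.00378). Cd44 changed by -0.38 (SE 0.08, adjusted p = 0.0104). Cd9, whose protein binds the precursor of heparin-binding EGF-like growth factor, had 211 ± 5.75 CPM in controls against 217 ± 16.3 in Myα5KO and was not called.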
